A study of Xenopus laevis with 20 samples.

Results

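The genes described here are the cyclins, the cyclin-dependent kinases and the regulators that carry a cell through mitosis, measured in whole Xenopus laevis embryos at stage 13, the early neurula. Members were taken by gene symbol from the array's annotation: cyclins A, B, D and E, every symbol that starts with cdk, the Cdc6, Cdc7, Cdc16, Cdc20, Cdc23, Cdc25, Cdc26 and Cdc27 families, the Aurora, Polo, Wee and Myt kinases, Bub and Mad proteins, subunits of the anaphase-promoting complex (APC/C), centromere and kinetochore proteins, and the mitotic kinesins kif11, kif20 and kif23. They came to 107 of the 15491 gene probe sets, a probe set being the group of short oligonucleotides that reads 1 transcript. Xenopus laevis is an allotetraploid whose genes often exist as .L and .S copies (homeologs); the members cover 67 genes when the copies are merged, and 3 probe sets read both copies of 1 gene. The level filter, log2 above 4 in at least 5 of the 20 arrays, kept 97 members for testing; the 10 left out were cdk17.S, cdk19.L, cenpn.L, ccnd2, cdk5r1l.S, plk2.L, plk3.S, wee2.L, 1 of the probe sets for cdc25a.L and 1 of those for cdk7.L. The match by spelling also brought in cdkal1, cdkn2aip, cdk2ap1 and cdc73, the last a subunit of the Paf1 transcription elongation complex.

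Cyclins are the regulatory partners that switch on cyclin-dependent kinases (Cdks). Cyclins D and E act with their kinases at the entry into S phase, cyclin A through S phase and G2, and cyclin B with Cdk1 at mitosis; Wee and Myt kinases hold Cdk1 inactive and Cdc25 phosphatases release it. The APC/C with Cdc20 destroys cyclin B to end mitosis, while Bub and Mad proteins at the kinetochores delay it. Frog eggs store cyclin and Cdk transcripts for the rapid early cleavages; cyclins A1 and E1 belong to that maternal supply, and cyclin A2 takes over from cyclin A1 in later embryos.

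The series asked what an excess or a loss of the eye field homeobox gene Xrx1 (rax) does to gene expression. By label, 5 arrays came from embryos injected with 50 pg of Xrx1 mRNA plus 400 pg of GFP mRNA, 5 from embryos given a morpholino against Xrx1 (1 pM in the sample labels) with the same GFP tracer, and 10 from uninjected sibling embryos; injections went into both dorsal blastomeres at the 4-cell stage. Other label fields and the series text give different doses, and the sample labels state pools of 3 embryos per array where the series text speaks of single embryos. No label says that replicates came from separate clutches, so the p-values cover the array-to-array spread, which may be technical. In whole embryos, fewer cells of a type and less RNA per cell cannot be told apart.

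The arrays fell into 2 sets: mRNA 1 to 5 with controls 1 to 5 (the first set), and morpholino 1 to 5 with controls 6 to 10 (the second set). No label names a set. The array's own GFP probe set, a check on injection, was at 13.1 to 14.5 in the mRNA arrays and at 3.04 to 3.32 in controls 1 to 5, as labelled. In the second set it was high (13.84 to 14.51) in controls 6 to 9, which are labelled uninjected, and low (2.80 to 2.95) in the arrays labelled morpholino 1 to 4, so 8 of the 10 arrays went against their label; morpholino 5 (14.82) and control 10 (2.89) did not. Below, the second set is therefore compared both by label and by tracer, the tracer-high arrays being controls 6 to 9 and morpholino 5, and the tracer-low arrays control 10 and morpholino 1 to 4. The tracer state is not a treatment label, and no direction of a morpholino effect can be read from it. Probe sets for rax.S reached 5.53 to 7.65 in the mRNA arrays against 4.72 to 5.68 in controls 1 to 5 on one, and 2.91 to 4.42 against 4.15 to 6.03 on the other; the rax.L probe set was at 3.09 to 5.23 against 6.68 to 8.38.

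All levels are log2 values after GCRMA, the authors' normalization, and all tests are limma's moderated test fitted over 10435 probe sets, with Benjamini-Hochberg adjustment over all of them. A member is called where its adjusted p is under 0.05. Differences are on the log2 scale, and values near or below log2 4 lie close to the arrays' background, where the size of a difference is uncertain.

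Excess Xrx1 left no called change among these genes. Of the 97 tested members, 0 were called between the Xrx1 mRNA arrays and controls 1 to 5, where 0% of all probe sets were called. At an unadjusted p under 0.05 there were 7 members (7.22%), against 7.78% of all probe sets, so the members' share was near the background. Their differences ran from -0.76 to 0.85 with a median of 0.02, beside 0.03 over all probe sets, and the median standard error of a member was 0.17. There were 52 positive and 45 negative differences. Same-numbered mRNA and control arrays deviated together, and a fit with the replicate number as a block called 0 members as well. The block fit called 0.0671% of all probe sets (7 of them); at an unadjusted p under 0.05 it gave 13 members (13.4%), against 14.6% of all probe sets. RNA quality was read from the 3′ minus 5′ level of 4 control transcripts. It averaged 2.68 ± 0.806 in the mRNA arrays and 1.64 ± 1.27 in controls 1 to 5 (SD, n = 5 each). With it as a covariate, 2 members and 355 of 10435 probe sets had an unadjusted p under 0.05 (limma), and 0 were called.

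The members with the smallest p in this comparison belonged to different steps of the cycle, and each had an adjusted p of 0.635 (limma). Because they were picked by p, the orders of arrays given for them are descriptions and not further tests. wee2.S, a Wee kinase that restrains Cdk1, was at 4.20, 4.58, 4.45, 4.39 and 4.68 in mRNA arrays 1 to 5, against 4.03, 4.22, 3.66, 3.54 and 4.19 in controls 1 to 5, a difference of 0.53 ± 0.16 (SE). The ranges overlapped by a small margin, mRNA 1 lying under control 2, but each mRNA array lay above its same-numbered control. One probe set of wee1.S, which encodes a kinase of the same family, was at 9.65, 10.10, 9.96, 9.88 and 10.23 in the mRNA arrays and 9.66, 9.08, 9.56, 9.78 and 9.34 in controls 1 to 5. Its difference of 0.48 ± 0.16 held in 4 of the mRNA arrays, which lay above every control, but not in mRNA 1. The other wee1.S probe set had the opposite sign (-0.22 ± 0.21).

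cdk9.L, the kinase of the transcription elongation factor P-TEFb rather than of the cell cycle, was at 10.14, 9.77, 10.21, 9.41 and 9.93 in the mRNA arrays and 9.70, 8.88, 8.92, 9.30 and 9.71 in controls 1 to 5, a difference of 0.59 ± 0.22. cdc6.S, a gene of the replication licensing machinery, differed by 0.37 ± 0.16, at 8.21, 8.60, 8.16, 8.45 and 8.46 in the mRNA arrays against 7.77, 8.27, 7.91, 7.74 and 8.36 in controls 1 to 5. For both genes the groups overlapped, although each mRNA array lay above its same-numbered control. cdc73.S differed by 0.78 ± 0.34 on 1 probe set and 0.15 ± 0.17 on the other; on the first, levels were uneven, with control 5 at 5.75 well under controls 1 to 4 (6.77 to 7.68) and mRNA 1 to 5 at 6.99 to 8.15. cdk2ap1.S was the only one of the 6 with a negative difference, -0.47 ± 0.18, from 10.39 to 11.14 in the mRNA arrays and 11.03 to 11.42 in controls 1 to 5.

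By role, the cyclin B probe sets had negative differences in 8 of 9 cases with a median of -0.10, led in size by ccnb1.2.L at -0.31 ± 0.17 (adjusted p = 0.668). The 3 probe sets of Cdc6 and Cdc7 were all positive, with a median of 0.33. Cyclin D, the partner of Cdk4 and Cdk6, lay near zero: ccnd1.L averaged 11.68 ± 0.18 in the mRNA arrays and 11.68 ± 0.28 in controls 1 to 5 (SD, n = 5 each). None of these passed the test. In the plot by role, differences for Xrx1 mRNA ran from -0.11 to 0.85 for cyclin E, -0.31 to 0.59 for Cdk catalytic subunits and -0.76 to 0.12 for Bub and Mad proteins.

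**Figure D1:**
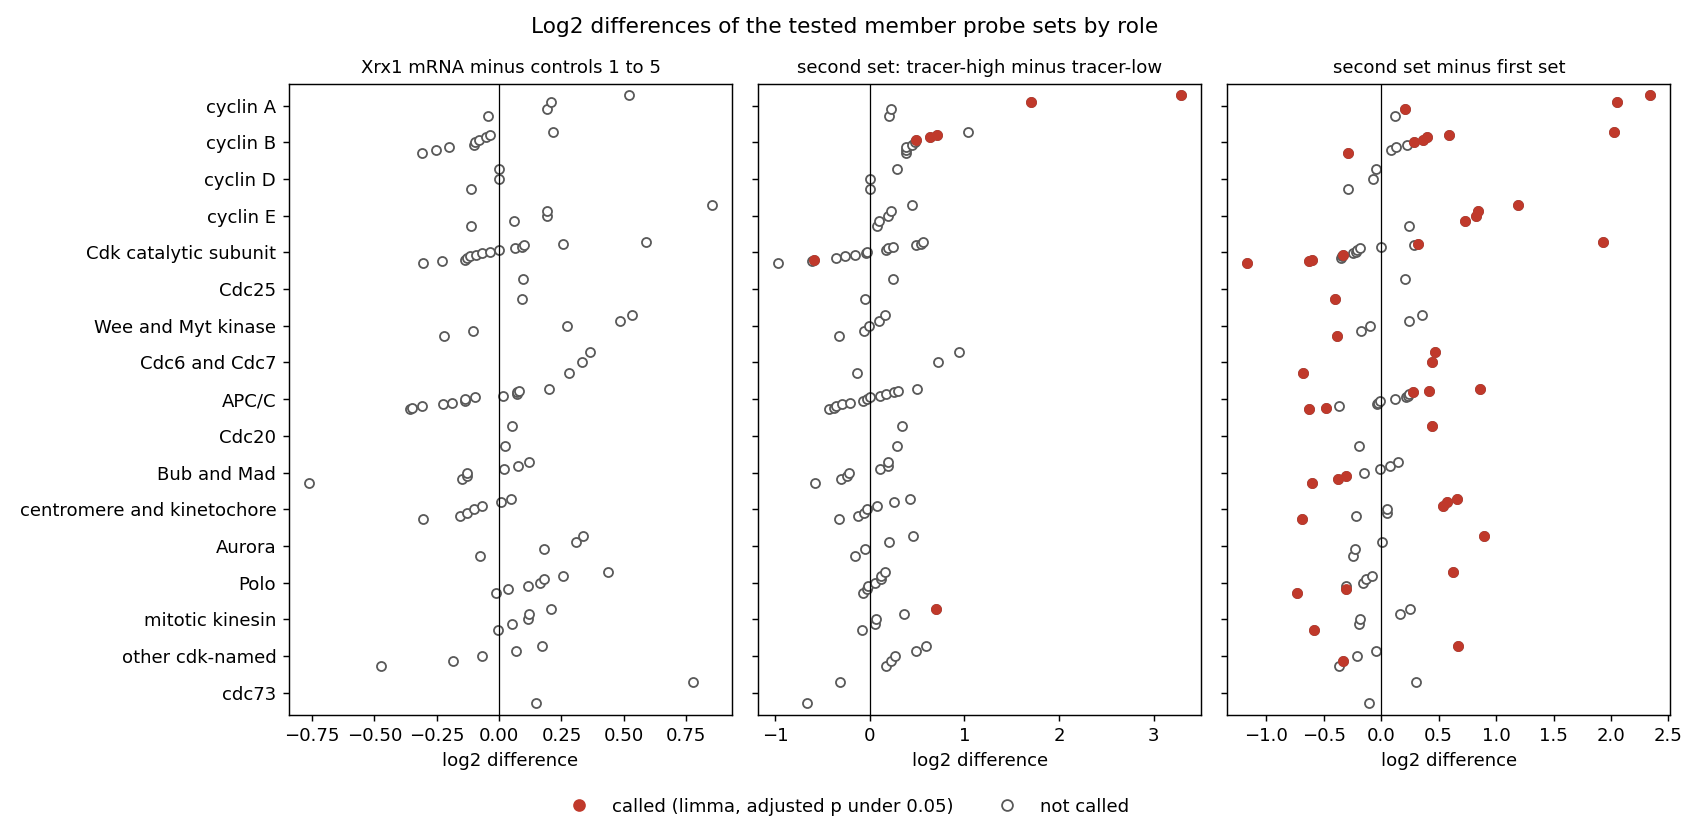
Log2 differences (x axis) of the 97 tested members in 17 role groups (y axis), in 3 comparisons; red points were called by limma at an adjusted p under 0.05 and open points were not. No member was called for Xrx1 mRNA; 7 were called between tracer-high and tracer-low arrays of the second set, 5 of them cyclins A1 and B2; 44 were called between the sets.

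By label, the second set also gave no call: 0 of 97 members between morpholino 1 to 5 and controls 6 to 10, with 0% of all probe sets called. At an unadjusted p under 0.05 there were 3 members (3.09%), against 3.13% of all probe sets. The 6 members of smallest p were ccnb1.S (-0.90 ± 0.32), kif20b.S (-0.52 ± 0.21), the ccnb2 probe set that reads both copies (-0.42 ± 0.19), cdk2.S (0.25 ± 0.13), cdk7.L (0.36 ± 0.19) and anapc11.L, the RING subunit of the APC/C (-0.26), all at an adjusted p of 0.998 by limma. Because 8 of the 10 arrays go against their labels, these signs are those of the label groups, and the direction of a morpholino effect is not settled.

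Grouped by tracer, the same 10 arrays showed higher cyclin A1 and B2 transcripts in the tracer-high embryos. Between tracer-high and tracer-low arrays, 7 of 97 members were called (7.22%), where 1.95% of all probe sets were; 6 members were higher, against 0.949% of all probe sets higher, and 1 was lower, against 0.997% lower. All 4 cyclin A and all 9 cyclin B probe sets had positive differences, with medians of 0.96 and 0.48, beside 0.12 over the members and 0.00 over all probe sets. Each of the 9 cyclin B probe sets had an unadjusted p under 0.05, and 3 passed the adjusted test. Over all members, 21 (21.6%) had an unadjusted p under 0.05, against 15.8% of all probe sets.

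The cyclin A1 copies differed most. ccna1.L was at 9.21, 8.84, 6.70, 8.31 and 10.21 in the tracer-high arrays (controls 6 to 9, then morpholino 5), against 5.80, 5.32, 4.64, 5.05 and 5.99 in the tracer-low arrays (control 10, then morpholino 1 to 4). Every tracer-high array lay above every tracer-low array, with control 8 the lowest of the high ones. The difference was 3.29 ± 0.54, or 9.78-fold (adjusted p = 0.0150, limma). ccna1.S was at 7.71, 7.06, 6.44, 7.30 and 8.32 in the tracer-high arrays and 5.99, 5.63, 5.08, 5.29 and 6.34 in the tracer-low arrays, a difference of 1.70 ± 0.34 (adjusted p = 0.0346). The groups again did not overlap, though control 8 (6.44) and morpholino 4 (6.34) came close. The cyclin A2 probe sets were not called: ccna2.L averaged 10.51 ± 0.37 in tracer-high and 10.29 ± 0.28 in tracer-low arrays (SD, n = 5 each; adjusted p = 0.644), and ccna2.S differed by 0.21 ± 0.11 (adjusted p = 0.390), with tracer-high arrays from 8.93 and tracer-low arrays up to 8.92.

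**Figure D2:**
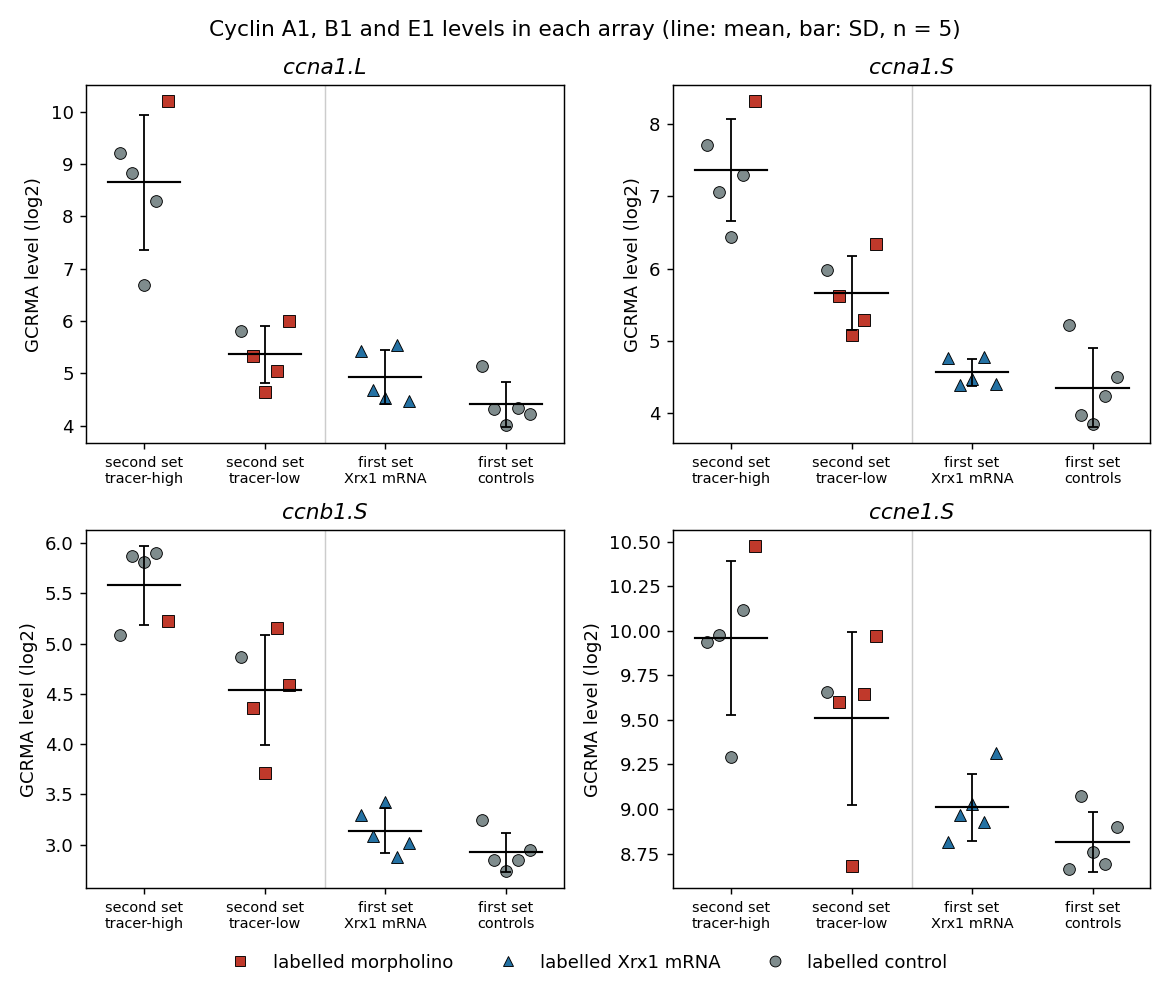
GCRMA level (log2, y axis) of ccna1.L, ccna1.S, ccnb1.S and ccne1.S in each of the 20 arrays, grouped by set and tracer state or label (x axis); symbols give the label, lines the mean and bars the SD (n = 5). For ccna1.L the tracer-high arrays sit between 6.70 and 10.21, above all other arrays. For ccne1.S most second-set arrays of both tracer states lie above the first set. The exceptions are morpholino 2 and control 8 (9.29, just under mRNA 5 at 9.31).

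Among the B cyclins, the mitotic partners of Cdk1, the ccnb2 probe sets were called. The probe set that reads both copies was at 11.10, 10.95, 11.18, 11.11 and 10.93 in the tracer-high arrays and 10.39, 10.27, 10.48, 10.63 and 10.30 in the tracer-low arrays, a difference of 0.64 ± 0.12 (adjusted p = 0.0243, limma). ccnb2.S was at 10.49, 10.73, 10.84, 10.54 and 10.42 against 9.70, 9.71, 10.10, 10.14 and 9.81 in the same groups, a difference of 0.71 ± 0.14 (adjusted p = 0.0333). ccnb2.L differed by 0.49 ± 0.11 (adjusted p = 0.0439), from 10.06 to 10.27 in the tracer-high and from 9.58 to 9.83 in the tracer-low arrays. None of these groups overlapped. Homeologs can share probe targets, so the 3 readings are uncertain as separate measurements.

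Other B cyclins had differences of the same sign that missed the threshold. ccnb1.S was at 5.08, 5.87, 5.81, 5.90 and 5.23 in the tracer-high arrays and 4.87, 4.35, 3.72, 5.15 and 4.59 in the tracer-low arrays (1.04 ± 0.27, adjusted p = 0.0834), with morpholino 3 (5.15) above control 6 (5.08). ccnb1.2.L averaged 11.36 ± 0.16 in tracer-high and 10.88 ± 0.20 in tracer-low arrays (SD, n = 5 each; difference 0.48 ± 0.13, adjusted p = 0.100). The licensing gene cdc6 showed the same pattern in both copies: cdc6.L was at 10.54, 10.82, 10.35, 10.21 and 11.23 in the tracer-high and 9.94, 9.67, 9.27, 9.55 and 10.03 in the tracer-low arrays, and its 0.94 ± 0.21 fell just short (adjusted p = 0.0509). cdc6.S differed by 0.72 ± 0.20 (adjusted p = 0.0934).

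**Figure D3:**
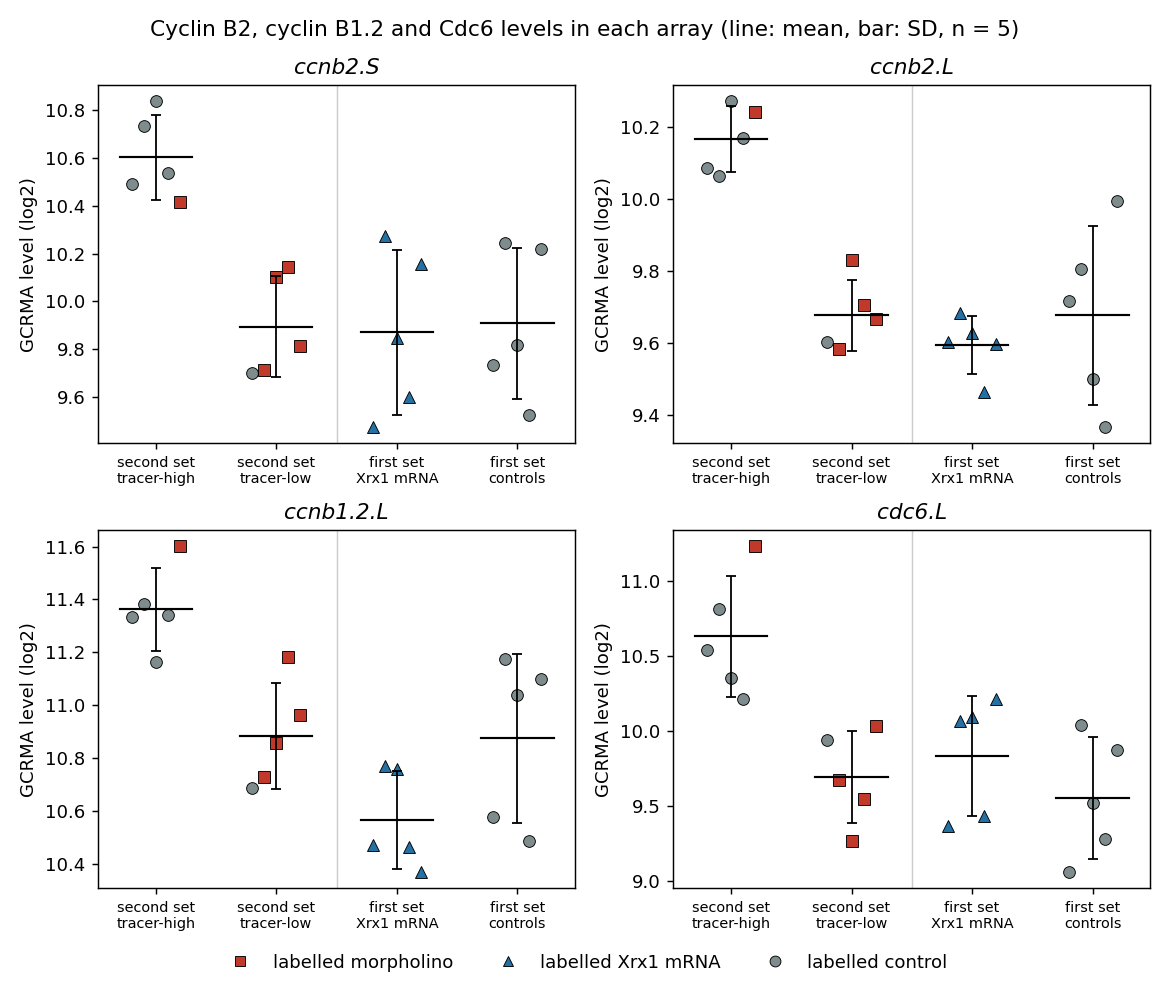
GCRMA level (log2, y axis) of ccnb2.S, ccnb2.L, ccnb1.2.L and cdc6.L in each array, grouped and marked by set, tracer state and label (x axis); lines are means and bars SD (n = 5). The tracer-high arrays of the second set stand above its tracer-low arrays without overlap for ccnb2.S, ccnb2.L and cdc6.L, while for ccnb1.2.L control 8 (11.16) lies just under morpholino 3 (11.18).

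Outside the cyclins 2 members were called. kif20b.S, a kinesin that acts in cytokinesis, was at 5.71, 5.57, 5.71, 6.18 and 5.84 in the tracer-high arrays and 5.39, 5.05, 5.07, 4.83 and 5.17 in the tracer-low arrays (0.70 ± 0.15, adjusted p = 0.0414, limma). cdk7.L, the Cdk-activating kinase that also serves the transcription factor TFIIH, was the 1 member lower in tracer-high arrays, at 8.11, 8.13, 8.06, 7.91 and 8.18, against 8.73, 8.73, 8.84, 8.37 and 8.65 in the tracer-low arrays (-0.58 ± 0.12, adjusted p = 0.0384). For both genes the groups did not overlap. cdk1.L, the Cdk that pairs with cyclin B, differed by 0.57 ± 0.19 and was not called (adjusted p = 0.167); its other copy, cdk1.S, had the opposite sign (-0.26 ± 0.16, adjusted p = 0.485).

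These calls sat close to the threshold. When each of the 10 arrays was left out in turn, 1 to 4 members were called, and ccna1.L alone stayed called each time (2.90 to 3.78, adjusted p 0.00427 to 0.0497, limma). ccnb2.L and kif20b.S were lost whichever array was left out. ccna1.S kept its call only without control 8 or morpholino 4, ccnb2.S only without morpholino 2, 3 or 5, and cdk7.L only without morpholino 3. The ccnb2 probe set for both copies lost its call without control 6, 8 or 10 or morpholino 1 or 4. Leaving out control 10 and morpholino 5 together gave 0 called members, with ccna1.L at 3.01 (adjusted p = 0.0533, limma). That fit called 0.355% of all probe sets, so fewer calls were made over the whole array too.

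Other measures moved with the tracer in the same arrays. The 3′ minus 5′ level of 4 control transcripts, a sign of RNA quality, averaged 0.821 ± 0.385 in tracer-high and 1.47 ± 0.575 in tracer-low arrays (SD, n = 5 each). With it as a covariate 0 members were called, where 0.134% of all probe sets were, and ccna1.L differed by 3.55 (adjusted p = 0.0786, limma). In that fit 20 of the 97 members had an unadjusted p under 0.05, against 1279 of 10435 probe sets. Of 6 tested probe sets on a list of oocyte and maternal transcripts, 2 were higher in tracer-high arrays and 0 lower, named after their values were seen. They were zp2.L by 0.86 (adjusted p = 0.00848) and pou5f3.3.L by 2.87 (adjusted p = 0.0199, limma). pou5f3.3.L averaged 2.70 in the first set and was under log2 4 on average in the tracer-low arrays too. It may have passed the level filter only through the tracer-high arrays, so its difference is a description of uncertain size. The list's mean level, which includes pou5f3.3.L, ran from 6.68 to 7.66 in tracer-high and from 5.95 to 6.58 in tracer-low arrays. Neural plate, epidermis, muscle, blood and multiciliated cell lists had 0 called probe sets in this comparison, the notochord and organizer list 2 higher and 1 lower of 7, and the endoderm list 1 higher of 8. Apart from the covariate fit, the part of any of these in the cyclin differences was not tested.

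In the first set, the tracer marks the Xrx1 mRNA arrays, and there no cyclin was called. ccna1.L was at 5.43, 4.67, 4.52, 5.53 and 4.47 in mRNA 1 to 5 against 5.14, 4.32, 4.00, 4.34 and 4.22 in controls 1 to 5 (0.52 ± 0.27, adjusted p = 0.666, limma). The groups overlapped, although each mRNA array lay above its same-numbered control. With the replicate block, 1 of 4 cyclin A probe sets had an unadjusted p under 0.05 (limma), against 14.6% of all probe sets. None of the 4 was called in that fit. The test of the difference itself, the tracer contrast of the second set minus that of the first, called 0 of 97 members and 0.47% of all probe sets; 17 members (17.5%) had an unadjusted p under 0.05, against 14.7% of all probe sets. The members of smallest p were ccna1.L (2.77 ± 0.64, adjusted p = 0.0594), ccnb1.2.L (0.79, adjusted p = 0.103), ccnb2.L (0.57) and the probe set for both ccnb2 copies (0.89), both with adjusted p = 0.120, ccna1.S (1.49, adjusted p = 0.136) and cdk1.L (0.79, adjusted p = 0.144). All 9 cyclin B probe sets had a positive value in it, with a median of 0.59. Without control 8, ccna1.L passed (3.26, adjusted p = 0.00753). On all arrays, then, the tracer contrasts of the sets were not shown to differ for any member.

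Between the sets, many members differed, as did the array as a whole. With tracer state held equal, 44 of 97 members (45.4%) were called between the second and the first set, against 44.3% of all probe sets, so the members' share was near the background. They were 26 higher and 18 lower in the second set, against 27% of all probe sets higher and 17.3% lower; the median difference was -0.01 over members and 0.07 over all. After quantile normalization 46 members were called, of which 39 were among the 44, but the split turned to 21 higher and 25 lower, and over all probe sets to 2191 higher and 2337 lower from 2813 and 1808. Of the 44, 2 higher (ccnb1.S and cdk11b.L) and 1 lower (cdc7.L) had passed the level filter through 1 set alone, and 41 through both. The 8 higher and 8 lower members of largest difference, described below, kept their sign and call under quantile normalization. Array medians were 5.80 to 5.88 in the second set and 5.64 to 5.77 in the first. Clutch, time, hybridization and treatment cannot be told apart between the sets. By label, only the first set holds Xrx1 mRNA arrays and only the second holds morpholino arrays. Holding tracer state equal therefore does not hold the injected material equal.

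By role, set beside 44.3% of all probe sets called, cyclin E had 4 of 5 probe sets higher and cyclin A 3 of 4, with none lower in either; cyclin B had 5 higher and 1 lower of 9; cyclin D had 0 called of 3. The medians were 0.82 for cyclin E, 1.13 for cyclin A, 0.29 for cyclin B and -0.07 for cyclin D. Cdk catalytic subunits had 2 higher and 4 lower of 14, Bub and Mad proteins 0 higher and 3 lower of 7, centromere and kinetochore proteins 3 higher and 1 lower of 7, and APC/C subunits 3 higher and 2 lower of 13. The higher counts include ccnb1.S in cyclin B and cdk11b.L in the Cdk catalytic subunits, which passed the level filter only through the second set. Those 2 calls are descriptions. The roles were not tested against the background or against each other.

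Cyclin A1 was raised in the second set in both copies: ccna1.L by 2.34 ± 0.32 (adjusted p = 1.15e-05) and ccna1.S by 2.05 ± 0.22 (adjusted p = 5.55e-07, limma). ccna1.S was at 4.77, 4.40, 4.48, 4.78 and 4.41 in the mRNA arrays and 5.22, 3.98, 3.85, 4.24 and 4.50 in controls 1 to 5; only control 1 reached the lowest arrays of the second set. The estimates were smaller in the arrays without tracer: ccna1.L differed by 0.96 (adjusted p = 0.0405) and ccna1.S by 1.31 (adjusted p = 0.0140, limma), set against 3.73 and 2.80 in the arrays with tracer. The test of the difference between the tracer contrasts called neither copy (adjusted p = 0.0594 for ccna1.L and 0.136 for ccna1.S, limma). ccnb1.S was at 2.87 to 3.43 in the mRNA arrays and 2.73 to 3.24 in controls 1 to 5, below log2 4 in every first-set array and above it in every second-set array but morpholino 2 (3.72). It passed the level filter only through the set where it is high, so its difference of 2.03 is a description and its size is uncertain. ccnb1.2.L, the other B1 gene, differed by 0.40 ± 0.11 (adjusted p = 0.00469, limma), while its .S copy was not called (0.08, adjusted p = 0.549). For ccnb1.2.L the tracer-low arrays averaged 10.88, against 10.57 in the mRNA arrays and 10.88 in controls 1 to 5. ccnb2.S was called between the sets as well (0.36 ± 0.12, adjusted p = 0.0229), although its tracer-low arrays averaged 9.89 ± 0.21, against 9.87 ± 0.35 in the mRNA arrays and 9.91 ± 0.32 in controls 1 to 5 (SD, n = 5 each).

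Cyclin E1 drives Cdk2 at the start of S phase. ccne1.S was at 9.94, 9.98, 9.29, 10.12 and 10.47 in the tracer-high and 9.66, 9.60, 8.68, 9.64 and 9.97 in the tracer-low arrays of the second set, against 8.81, 8.96, 9.03, 8.93 and 9.31 in the mRNA arrays and 8.66, 9.07, 8.76, 8.69 and 8.90 in controls 1 to 5. The difference between the sets was 0.82 ± 0.15 (adjusted p = 0.000246, limma), and morpholino 2 (8.68) was the 1 second-set array inside the range of the first-set controls. Of 3 ccne1.L probe sets, 2 were higher, by 0.84 ± 0.20 (adjusted p = 0.00213) and 0.73 ± 0.24 (adjusted p = 0.0182), and the third was not called (0.24 ± 0.14, adjusted p = 0.168). ccne2.L was 1.19 ± 0.37 higher (adjusted p = 0.0146), but it varied widely in the first set, down to 5.13 in mRNA 1 and 4.40 in control 4. Its call was lost in the arrays with tracer alone (0.80) and with the RNA quality covariate (1.03).

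Of the other members higher in the second set, aurka.L encodes Aurora A, the spindle pole kinase, and was at 9.15 to 9.67 in tracer-high and 8.66 to 9.23 in tracer-low arrays, against 8.06 to 9.06 in the mRNA arrays and 7.63 to 8.98 in controls 1 to 5 (0.90 ± 0.16, adjusted p = 0.000187, limma). anapc10.L, the APC/C subunit that helps bind its substrates, was at 4.52 to 5.82 over the second set and 4.06 to 4.45 over the first (0.86 ± 0.13, adjusted p = 3.61e-05), without overlap. cdk11b.L was at 4.52 to 7.06 over the second set and 3.63 to 4.66 over the first, above log2 4 in 10 and 3 arrays; it too passed the filter only through the set where it is high, and its difference of 1.93 is given as a description. cdc20.S, the APC/C activator, differed by 0.44 ± 0.12 (adjusted p = 0.00572).

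Lower in the second set were several kinases that act in different complexes. cdk2.S, the partner of cyclins E and A, was at 8.23, 8.27, 8.17, 8.35 and 8.63 in the tracer-high and 8.38, 8.32, 8.33, 8.69 and 8.70 in the tracer-low arrays, against 8.70, 8.78, 9.05, 9.20 and 9.14 in the mRNA arrays and 8.93, 8.93, 9.13, 9.49 and 9.04 in controls 1 to 5. The sets overlapped only where morpholino 4 came just above mRNA 1, and the difference was -0.63 ± 0.10 (adjusted p = 6.09e-05, limma). cdk7.L differed by -0.60 ± 0.10 (adjusted p = 0.000131), at 7.91 to 8.84 over the second set and 8.29 to 9.29 over the first. cdk4.S, the cyclin D kinase, averaged 11.70 ± 0.21 in tracer-high and 11.74 ± 0.13 in tracer-low arrays, against 12.08 ± 0.07 in the mRNA arrays and 12.02 ± 0.17 in controls 1 to 5 (SD, n = 5 each; -0.33 ± 0.08, adjusted p = 0.00335).

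cdk5.L, known for its work in neurons rather than in dividing cells, had a difference of -1.17 ± 0.32 (adjusted p = 0.00593, limma), which rested in part on morpholino 5 at 2.99 and morpholino 4 at 4.67; the other second-set arrays were at 5.25 to 6.93 and the first set at 6.17 to 7.29. It stayed called in each of the 20 fits that left out 1 array (-1.29 to -0.92). Of 7 Bub and Mad members, 3 were lower and 0 higher. bub1.L, a kinetochore kinase, was at 6.99 to 7.62 over the second set and 7.50 to 8.27 over the first (-0.60 ± 0.10, adjusted p = 9.59e-05), bub3.L differed by -0.37 ± 0.08 (adjusted p = 0.00134), and 1 of the mad2l1.S probe sets by -0.30 ± 0.08 (adjusted p = 0.00688). The second mad2l1.S probe set did not pass (0.08). Centromere and kinetochore members were called in both directions, 3 higher and 1 lower of 7: cenpk.L (0.66 ± 0.12, adjusted p = 0.000318), nuf2.L of the Ndc80 complex (0.57 ± 0.12, adjusted p = 0.00099) and cenpp.L (0.54 ± 0.17, adjusted p = 0.0129), named after their values were seen, were higher. The lower one, cenpv.L, was at 4.13 to 4.86 over the second set and 5.22 to 5.84 over the first, without overlap (-0.69 ± 0.09, adjusted p = 1.13e-05).

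**Figure D4:**
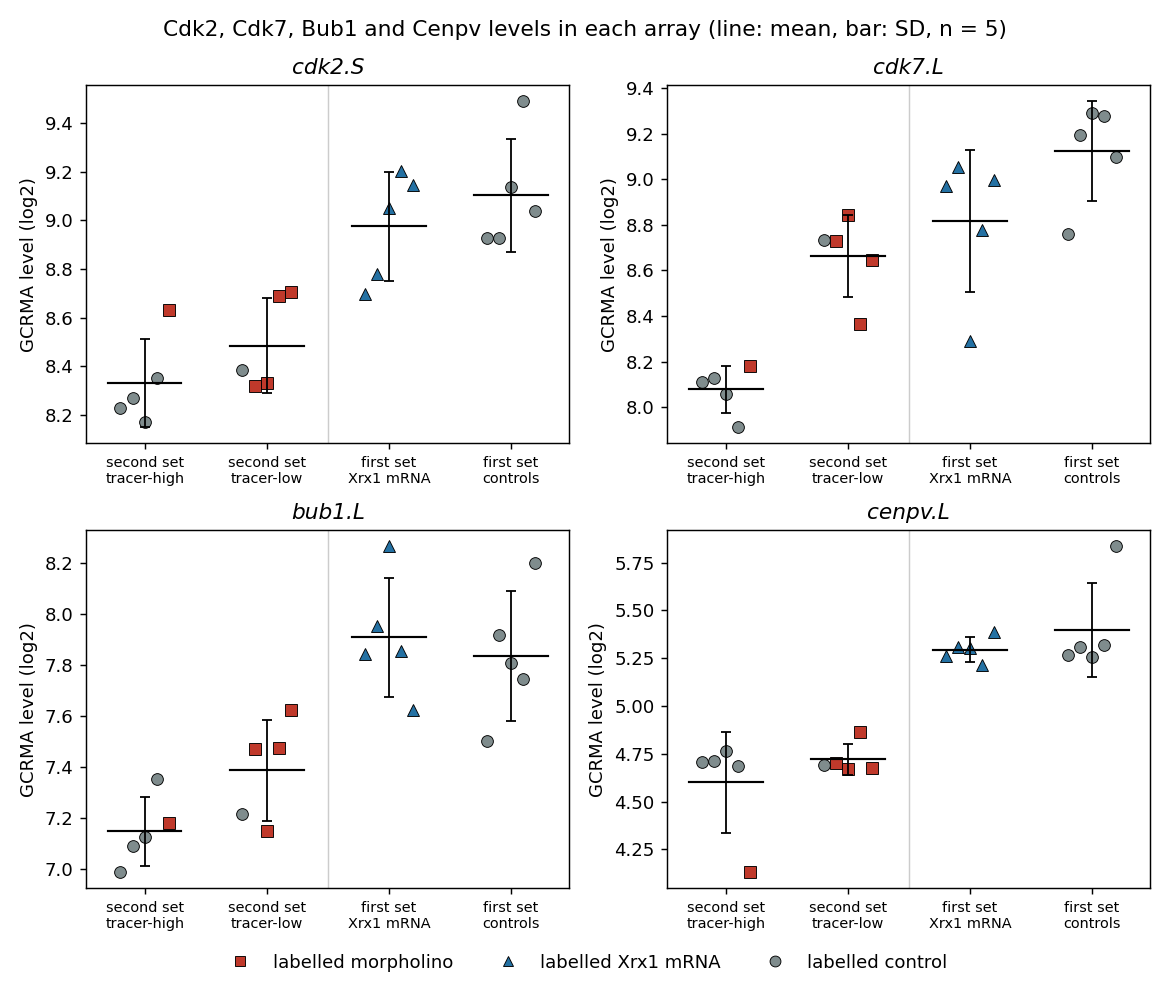
GCRMA level (log2, y axis) of cdk2.S, cdk7.L, bub1.L and cenpv.L in each array, grouped and marked by set, tracer state and label (x axis); lines are means and bars SD (n = 5). The means of both second-set groups lie below those of both first-set groups in each panel, and the arrays do not overlap for cenpv.L (4.13 to 4.86 against 5.22 to 5.84).

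Of the remaining members named here, anapc15.S was lower in the second set (-0.62 ± 0.14, adjusted p = 0.00172, limma). cdc7.L, the kinase that fires replication origins, was at 3.28 to 4.21 over the second set and 3.51 to 4.60 over the first, above log2 4 in 1 and 9 arrays, so it passed the filter only through the first set and its difference of -0.68 is a description. plk2.S was lower by 0.73 on its own probe set (-0.73 ± 0.14, adjusted p = 0.000295), while the probe set that reads both plk2 copies was higher (0.62 ± 0.19, adjusted p = 0.0126), so the direction for plk2 is not settled. kif20b.S was lower in the second set (-0.59 ± 0.19, adjusted p = 0.0166), although within that set it was higher in the tracer-high arrays. In the arrays without tracer alone the calls of cdk5.L (-0.55), cdc7.L (-0.45), anapc15.S (-0.40), bub1.L (-0.45) and cdk7.L (-0.46) were lost, and 19 members (19.6%) were called in all, against 15.4% of all probe sets. By label, between controls 6 to 10 and controls 1 to 5, 27 members (27.8%) were called, against 23.1% of all probe sets.

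The most strongly hybridizing members of several roles were not called in any of these comparisons: aurkb.L of the chromosomal passenger complex (-0.23 ± 0.14 between the sets), ndc80.S of the outer kinetochore (-0.22 ± 0.10), kif20a.L (-0.18 ± 0.10), cdc25a.L (0.21 ± 0.14), anapc11.L (0.23 ± 0.10), ccna2.L (0.12 ± 0.12) and ccnd1.L (-0.05 ± 0.10). Their adjusted p between the sets ran from 0.0714 for anapc11.L to 0.730 for ccnd1.L by limma. A p that misses the threshold does not show equal levels. Between the sets, the standard errors of these probe sets were 0.10 to 0.14. The 0.23 of anapc11.L was no smaller than the 0.21 of ccna2.S, which was called between the sets. For plk1.S, the Polo kinase of mitotic entry, the brightest probe set was not called (-0.16 ± 0.12), while another was lower in the second set (-0.31 ± 0.11, adjusted p = 0.0274).

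The .L and .S copies could be compared for 17 genes, each copy by its brightest tested probe set. Between the sets, where 44.3% of all probe sets were called, 12 of the 17 pairs had the same sign. In 4 pairs both copies were called, always in the same direction, and in 9 pairs only 1 copy was. The 9 include cdk11b, whose .L copy passed the level filter only through the second set, so that call is a description. The 4 were ccna1, ccne1, cdc6 and ccnb2, and the ccnb2 readings are uncertain as separate measurements. These counts were not tested against the share of all probe sets called, so agreement between copies is not shown to exceed it. The tracer-low means of cdc6 lay between those of the first-set groups. cdc6.L averaged 10.63 in tracer-high and 9.69 in tracer-low arrays, against 9.84 in the mRNA arrays and 9.56 in controls 1 to 5. For cdc6.S these means were 8.99, 8.27, 8.37 and 8.01. aurka.L was called at 0.90 while aurka.S had 0.01, cdk11b.L was at 1.93 while the 3 tested cdk11b.S probe sets disagreed, at 0.29 for the brightest, used for the pair, and -0.34 and -0.21 for the others, none of them called, and cdc20.S was called at 0.44 while cdc20.L had -0.20. ccnb3.S was lower (-0.28 ± 0.09, adjusted p = 0.0187, limma) while ccnb3.L had 0.13. Whether the copies of a pair differ from each other was not tested. In the tracer comparison, where 1.95% of all probe sets were called, 11 of 17 pairs had the same sign. There 2 pairs, ccna1 and ccnb2, had both copies called. For Xrx1 mRNA 11 of 17 had the same sign and none was called, with 0% of all probe sets called.

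Genes of the same machinery outside the members gave a further view. A list of 80 other cell cycle genes, such as E2F factors, condensins and chromosomal passengers, matched 61 genes and 82 tested probe sets. Of these, 0 were called for Xrx1 mRNA, 1 was higher and 0 lower between tracer-high and tracer-low arrays, and 16 were higher (19.5%) and 8 lower (9.76%) between the sets, below the 27% and 17.3% of all probe sets. Its mean level stayed between 7.91 and 8.11 in all 20 arrays. The multiciliated cell list, 8 tested probe sets, moved with the sets: 7 were higher and 0 lower in the second, with mean levels of 5.90 to 6.26 in tracer-high and 5.41 to 5.93 in tracer-low arrays, against 4.76 to 5.06 in the mRNA arrays and 4.76 to 5.19 in controls 1 to 5. Epidermis probe sets were higher in 5 of 9 cases and neural plate probe sets lower in 4 of 11. Of the oocyte and maternal list, 2 of 6 were higher, 1 of them pou5f3.3.L, which was near background in the first set. The list's mean levels were 5.80 to 6.59 in the mRNA arrays and 5.68 to 6.31 in controls 1 to 5. The 3′ minus 5′ measure averaged 2.68 ± 0.806 in the mRNA arrays and 1.64 ± 1.27 in controls 1 to 5 (SD, n = 5 each). Their part in the members' differences between the sets was not tested, except that with the 3′ minus 5′ measure as a covariate 36 members (37.1%) were called, against 33.3% of all probe sets.

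**Figure D5:**
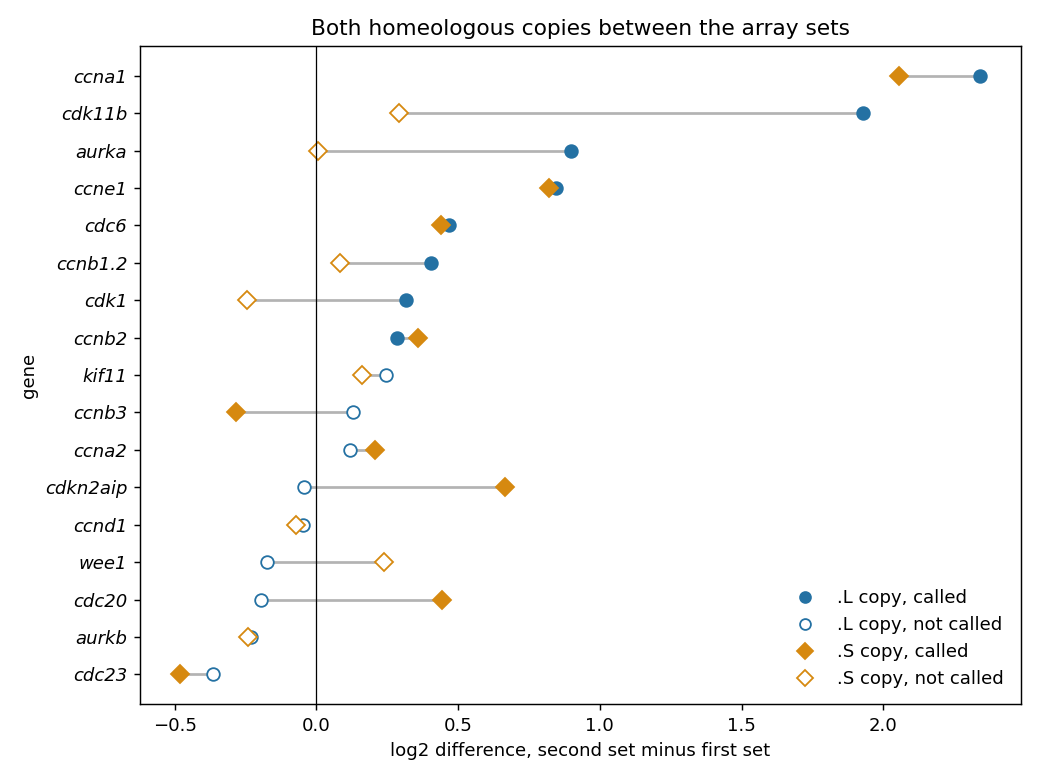
Log2 difference, second set minus first set (x axis), for the .L copy (circles) and the .S copy (diamonds) of 17 genes (y axis); filled symbols were called by limma at an adjusted p under 0.05. Both copies of ccna1, ccne1, cdc6 and ccnb2 lie to the right of zero and are filled, whereas for aurka (0.90 and 0.01) and for cdk11b (1.93 and 0.29, the .S value from the brightest of 3 probe sets) only the .L copy is. The cdk11b.L call is a description, because that probe set passed the level filter only through the second set.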

How the data were processed

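Total RNA from 20 samples was hybridized to Affymetrix Xenopus laevis arrays. The authors deposited 1 table of log2 values for 15611 probe sets; the submitters' processing notes name GCRMA, with a version not given in the sources used here. GCRMA usually includes quantile normalization of probes, so a shift of all transcripts may not show. Scanner files were not used here, and the number of arrays limits the precision. None of the 120 control probe sets was tested as a gene, though 1 gives the tracer grouping and others the 3′ minus 5′ measure; 10435 of 15491 gene probe sets passed the filter (log2 above 4 in at least 5 arrays).

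Gene symbols came from the platform annotation, and 106 of the 107 members had the same symbol in RefSeq's gene table for Xenopus_laevis_v10.1. The fits used R 4.3.3 and limma 3.58.1 (lmFit, eBayes) with Benjamini-Hochberg adjustment, tested on simulated data. Arrays were grouped by label. The second set was also grouped by the GFP control probe set (above log2 8 or not). The contrast between the sets used 4 cell means over 20 arrays. Named members were up to 8 called higher and up to 8 called lower per comparison, or the 6 of smallest p where fewer than 3 were called, plus the brightest of each of 17 roles; others were named after their values were seen. The members and lists were chosen with earlier results of these data known.

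The groups share replicate numbers. Deviations from the group means correlated, between each mRNA array and the same-numbered one of controls 1 to 5, at 0.486, 0.494, 0.634, 0.550 and 0.226, over 0.1 in each pair. In 4 of 5 the array correlated best with its own number, and mRNA 4 with control 1. By the rule that every pair exceed 0.1, these numbers were taken to pair the arrays. The values of single members for Xrx1 mRNA nevertheless come from the fit without the block. The contrast between the sets used no block either, so its standard errors may be too small. The median standard error of a member was 0.170 in that fit and 0.130 with the block. Alternatives were another filter or none, quantile normalization, array weights, the 3′ minus 5′ covariate, replicate blocks, other controls, and each array left out in turn. Promoter sequence was not analysed here.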

Additional observations from a re-analysis of the deposited data

Results flagged for a closer look

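For part of the named members, 80 sets of 5 arrays were searched for 1 array far from the other 4 (Dixon's test), and 8 stood out. Other named members were not searched, so outlying arrays among them are not listed here. Chance gives about 5% of sets that were not picked for their values. Some members were named because they were called by tracer, and morpholino 5 and control 10 differ in tracer state from their label groups. That rate therefore does not apply to their sets. ccna1.L was at 10.2 in morpholino 5, against 4.64 to 5.99 in morpholino 1 to 4. The tracer was high in morpholino 5 and low in the other 4. In the same array cenpv.L was at 4.13, against 4.67 to 4.86 in morpholino 1 to 4. Control 10, the 1 tracer-low array among controls 6 to 10, held cdk7.L at 8.73, against 7.91 to 8.13 in controls 6 to 9, and cdc7.L at 3.66, against 3.44 to 3.49. cdk11b.L was at 4.99 in control 8, against 5.90 to 6.20 in the other controls of the second set, and at 4.66 in control 4, against 3.86 to 3.98 in the other controls of the first set. ccne1.L, on 1 of its probe sets, was at 7.27 in mRNA 3, against 8.15 to 8.50 in the other mRNA arrays. cenpv.L was at 5.84 in control 5, against 5.25 to 5.32 in controls 1 to 4.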

How the results depend on the processing

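Counts of called members depended on the setting as follows. By label in the second set, where 0 members were called, a replicate block over all 20 arrays gave 21 (21.6%, against 20.5% of all probe sets), and leaving out the 8 arrays whose tracer goes against the label gave 10 (10.3%, against 4.74%). That last fit has 1 morpholino array, morpholino 5, assumed to vary like the other groups. The ccnb1.S difference then turned to 1.68 and 1.98 (0.393 against all 10 controls), the probe set for both ccnb2 copies to 0.255 and 0.647, cdk2.S to -0.569 and -0.353 (-0.158 against all 10 controls), cdk7.L to -0.571 and -0.878 (-0.103 against all 10 controls), and anapc11.L to 0.0124 and 0.0369. The block fit compares morpholino arrays with same-numbered first-set controls, and the other fit morpholino 5 with controls 1 to 5 and 10, so both carry the difference between the sets. For Xrx1 mRNA the replicate block within the first set changed no member's call, and cdc6.S turned to -0.0133 against all 10 controls. Between tracer-high and tracer-low arrays, array weights gave 16 called members (16.5%, against 7.47% of all probe sets). The 3′ minus 5′ covariate gave 0 (against 0.134% of all probe sets), and the fit without control 10 and morpholino 5 gave 0 (against 0.355%). Fits that left out each array gave 1 to 4, where 57 to 170 of 10435 probe sets were called. Between the sets, 44 became 19 in arrays without tracer (19.6%, against 15.4%) and 27 between controls alone (27.8%, against 23.1%). For the difference of the tracer contrasts, array weights gave 11 (11.3%, against 5.01%). Fits that left out each array gave 0 to 1 there, where 13 to 85 of 10435 probe sets were called. Causes were otherwise not tested. Signal near background limits ccnb1.S, cdk11b.L and cdc7.L. It also makes uncertain the sizes for other members with arrays near log2 4, such as wee2.S, anapc10.L and both ccna1 copies in the first set.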
